A study of Mus musculus with 12 samples.

Results

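DNA methylation of 8 cell cycle brakes was examined in a pair of immortalised mouse embryonic fibroblast (iMEF) lines: Cdkn2a, Cdkn2b, Cdkn1a, Cdkn1b, Trp53, Rb1, Mdm2 and Rassf1. They are 8 of 33543 autosomal genes that could be placed on a strand. A cytosine was taken as a member when it was listed in at least 10 of the 12 libraries and lay between 1500 bp upstream and 500 bp downstream of the annotated start of its gene, or, for Cdkn2a and Cdkn2b, anywhere in the gene. This rule gave 308 of the 1201548 autosomal cytosines listed in at least 10 libraries. The windows around the starts of Cdkn2a and Cdkn2b, which reach beyond the genes, and the spans of the other genes are given beside it, for 642 cytosines in all.

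The experimental line had the genotype R26M2rtTA/+;TetOcre;Sdhcfl/fl and the control line R26M2rtTA/+;TetOcre;Sdhcfl/wt, so that both carried the doxycycline-dependent transactivator and the Cre transgene, and both could lose a floxed Sdhc allele. Both came from mouse embryonic fibroblasts that had been immortalised with SV40 virus, and each line is 1 cell line. Doxycycline at 1 µg/mL was given to both lines to switch on Cre, which removes exon 4 of Sdhc, the gene of a succinate dehydrogenase subunit. Reduced representation bisulfite sequencing (RRBS), which reads CpG-rich fragments after unmethylated cytosines have been converted, was carried out on 1 library per line before doxycycline (day 0) and on days 5, 9, 12, 16 and 20. Following the grouping of the study, 6 control libraries (days 0 to 20) were set against 5 experimental libraries (days 5 to 20), and experimental day 0 was kept apart. The libraries of a line are successive samplings of the same culture, so the SD values and p-values given here measure the spread between time points and not between independent cultures.

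The values are beta values, the share of reads called methylated at a cytosine, from 0 to 1. The deposited files give this share without read counts, so the depth behind a single value is unknown. Libraries listed between 932307 and 1716381 cytosines, with the fewest in control day 12. The Sdhc promoter (25 cytosines) was at 0.0127 ± 0.0143 (SD, n = 5) in the experimental line and at 0.0194 ± 0.0218 (SD, n = 6) in the control line (adjusted p = 0.801 from limma). As a check of the labelled cell type, RRBS can give only promoter methylation and no expression. Of 14 fibroblast marker genes, 8 had a measured promoter, with a median control beta value of 0.176, and 3 of these were under 0.1 and 3 over 0.5. These values do not mark the cells as fibroblasts. The 5 germline marker promoters were all over 0.5 with a median of 0.843. Of 7 epithelial markers 5 were measured (median 0.247), and of 5 blood markers 2 were measured (median 0.405).

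The members code for proteins that hold a cell before DNA replication, or that regulate those that do. Cdkn2a encodes p16Ink4a, which blocks the cyclin D kinases, and, from an earlier start and in another reading frame, p19Arf, which holds Mdm2 away from p53. Cdkn2b (p15Ink4b) blocks the same kinases, and Cdkn1a (p21) and Cdkn1b (p27) block cyclin E and cyclin A kinases. Trp53 encodes the transcription factor p53, Mdm2 the ligase that marks p53 for degradation, Rb1 the retinoblastoma protein that holds back E2F factors, and Rassf1 a scaffold of the Hippo and cell cycle pathways whose first promoter is a CpG island often methylated in human tumours. Mouse fibroblasts that become immortal on their own commonly lose p53 or the Cdkn2a locus, whereas the large T antigen of SV40 binds the p53 and Rb proteins directly. Methylation of a CpG island at a start goes along with silencing, and methylation inside a gene body does not.

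The sequences around the starts show how much of each promoter RRBS could see. RefSeq sequences (build GRCm38.p6; mm10 is the same build) from 250 bases before to 50 after a start were found for 7 of the 8 genes. Rb1 had none. They are given 5′ to 3′ in lower case, with capitals on each CpG that had a cytosine listed in at least 10 libraries on at least one strand. All 83 such cytosines inside these sequences fell on a CpG. More were listed in fewer libraries, as at the Arf start, with 13 in at least 10 libraries and 35 in any. The Cdkn2a and Cdkn2b starts are shown because deletion or methylation of this locus is the usual way these inhibitors are lost, and the pairs of Cdkn1a and Rassf1 because their alternative starts differed in what was measured.
Cdkn2a, Arf start, chr4:89294570-89294869, minus strand: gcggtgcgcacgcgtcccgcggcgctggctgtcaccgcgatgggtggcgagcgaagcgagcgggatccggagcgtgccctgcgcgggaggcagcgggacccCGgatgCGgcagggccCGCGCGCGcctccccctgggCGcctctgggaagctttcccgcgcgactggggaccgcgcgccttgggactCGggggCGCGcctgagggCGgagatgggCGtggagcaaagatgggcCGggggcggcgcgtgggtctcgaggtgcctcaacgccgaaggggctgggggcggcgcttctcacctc
Cdkn2b start, chr4:89310983-89311282, minus strand: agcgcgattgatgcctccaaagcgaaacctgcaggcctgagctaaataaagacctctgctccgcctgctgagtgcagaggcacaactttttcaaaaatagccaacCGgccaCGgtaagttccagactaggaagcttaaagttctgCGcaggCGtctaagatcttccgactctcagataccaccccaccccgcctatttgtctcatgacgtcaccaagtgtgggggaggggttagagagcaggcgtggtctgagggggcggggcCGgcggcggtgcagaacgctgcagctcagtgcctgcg
Cdkn1a, first start, chr17:29090729-29091028, plus strand: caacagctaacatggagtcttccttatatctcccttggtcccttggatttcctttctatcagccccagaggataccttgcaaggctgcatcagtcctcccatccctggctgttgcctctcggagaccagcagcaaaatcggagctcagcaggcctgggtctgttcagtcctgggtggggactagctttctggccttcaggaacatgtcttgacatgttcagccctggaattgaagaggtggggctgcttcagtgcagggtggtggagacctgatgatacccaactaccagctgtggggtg
Cdkn1a, second start, chr17:29093519-29093818, plus strand: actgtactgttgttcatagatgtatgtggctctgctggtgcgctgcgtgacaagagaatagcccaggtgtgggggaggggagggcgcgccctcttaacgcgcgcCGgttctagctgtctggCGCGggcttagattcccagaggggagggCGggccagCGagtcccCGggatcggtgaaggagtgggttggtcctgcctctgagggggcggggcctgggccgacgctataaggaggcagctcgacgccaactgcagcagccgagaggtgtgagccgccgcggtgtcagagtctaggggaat
Rassf1, first start, chr9:107551305-107551604, plus strand: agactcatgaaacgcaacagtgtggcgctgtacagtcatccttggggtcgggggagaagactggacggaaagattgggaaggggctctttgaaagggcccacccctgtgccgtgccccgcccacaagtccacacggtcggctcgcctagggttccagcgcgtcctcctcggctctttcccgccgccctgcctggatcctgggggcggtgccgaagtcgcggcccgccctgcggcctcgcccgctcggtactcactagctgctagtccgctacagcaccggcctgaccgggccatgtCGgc
Rassf1, second start, chr9:107554333-107554632, plus strand: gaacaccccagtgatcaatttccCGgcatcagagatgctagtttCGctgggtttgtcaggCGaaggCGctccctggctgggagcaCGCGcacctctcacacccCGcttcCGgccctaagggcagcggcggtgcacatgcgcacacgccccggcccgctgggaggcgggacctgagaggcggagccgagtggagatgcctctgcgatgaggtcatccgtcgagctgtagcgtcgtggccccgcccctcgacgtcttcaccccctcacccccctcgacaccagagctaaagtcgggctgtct

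The Arf start of Cdkn2a had 45 CpGs in 300 bases, more than 98.1% of the 32851 starts in the table, and 13 of them were measured in at least 10 libraries. The first start of Cdkn1a had 2 CpGs and no CCGG, a motif that reads the same on both strands and contains a CpG. No cytosine was listed in any of the 12 libraries from 1500 bp upstream to 500 bp downstream of that start, so Cdkn1a has no value under the rule. CCGG was found in 52.8% of all starts of the table. The second Cdkn1a start had 23 CpGs and 2 CCGG, and 6 of its CpGs were measured. The Trp53 start, not shown, had 10 CpGs, no CCGG and no listed cytosine, and the 16 cytosines of its window all lay from 1421 to 1212 bp upstream, inside the neighbouring gene Wrap53.

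Every member locus other than the first Cdkn1a start was present among the listed cytosines of every library. Control day 12 listed the fewest at each of them. The Cdkn2a gene (chr4:89274473-89294619, minus strand, mm10) had 59 to 80 listed cytosines in the experimental libraries of days 5 to 20 and 39 to 70 in the control libraries, and Cdkn2b (chr4:89306289-89311032, minus strand) had 39 to 56 and 24 to 53. A locus missing from all chromosomes would list none, and the loss of a single copy cannot be seen in these values.

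Where cytosines beside a start were measured, most were unmethylated in both lines. Of the 308 cytosines of the rule, 263 had a mean beta value under 0.1 over the libraries and 173 were at 0 in every library that listed them. The mean was over 0.5 at 28, of which 16 were in Cdkn2a, outside its first window, 6 upstream of Rassf1, 3 upstream of Cdkn1b, 2 upstream of Mdm2 and 1 upstream of Rb1. The methylated ones lay at least 649 bp from the start in each gene.

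**Figure D1:**
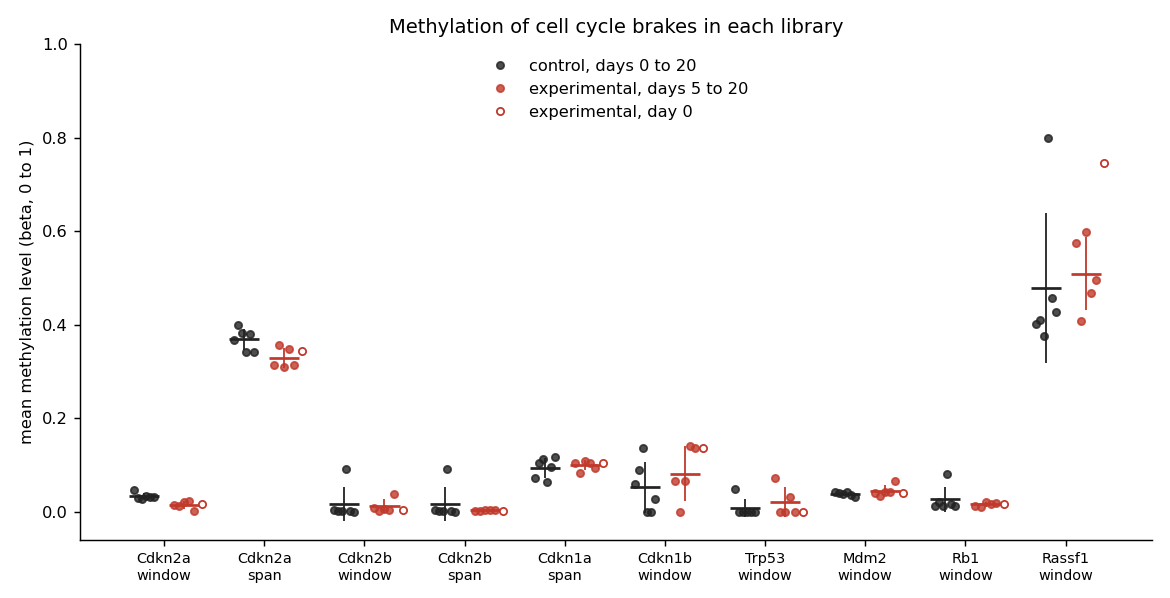
Mean beta value (0 to 1) of each member in each library, in the window around the start and, for Cdkn2a, Cdkn2b and Cdkn1a, over the gene span. Black points are the 6 control libraries, red points the 5 experimental libraries of days 5 to 20, open points experimental day 0, and bars mean ± SD. Of the items drawn, the Cdkn2a span and the Rassf1 window sit above 0.3, and the Cdkn2a window is the 1 item shown in which black and red points of days 5 to 20 do not overlap.

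No member promoter passed the threshold between the lines. Limma on M-values, the log2 ratio of methylated to unmethylated share with 0.01 added to each, called 0 of the 7 member promoters that had cytosines, at an adjusted p under 0.05, beside 2.03% of 15804 promoters. A count of 0 is near that background. Of all promoters 1.51% were called higher and 0.525% lower in the experimental line. At an unadjusted p under 0.05 stood 1 of 7 members, Cdkn2a, beside 16.6% of all promoters. The groups did not overlap at 1 of 7, again Cdkn2a, beside 4.37% of all promoters (3.33% higher, 1.04% lower). The median difference of beta values, experimental minus control, was 0.00679 over the 7 members and 0.00235 over all promoters, and on the M-value scale it was 0.174 and 0.178. For single cytosines, 135 of the 308 varied and were tested, 0 were called beside 0.477% of 934971 cytosines, and 6 had an unadjusted p under 0.05 beside 10.6%. The groups did not overlap at 1 of the 135, which was lower in the experimental line, beside 2.08% of all cytosines (0.853% lower). Over whole gene spans, 0 of 8 members were called beside 2.1% of 21320 genes, and 2, Cdkn2a and Mdm2, had an unadjusted p under 0.05 beside 15.5%. The groups overlapped at all 8, and did not at 4.55% of all genes.

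**Figure D2:**
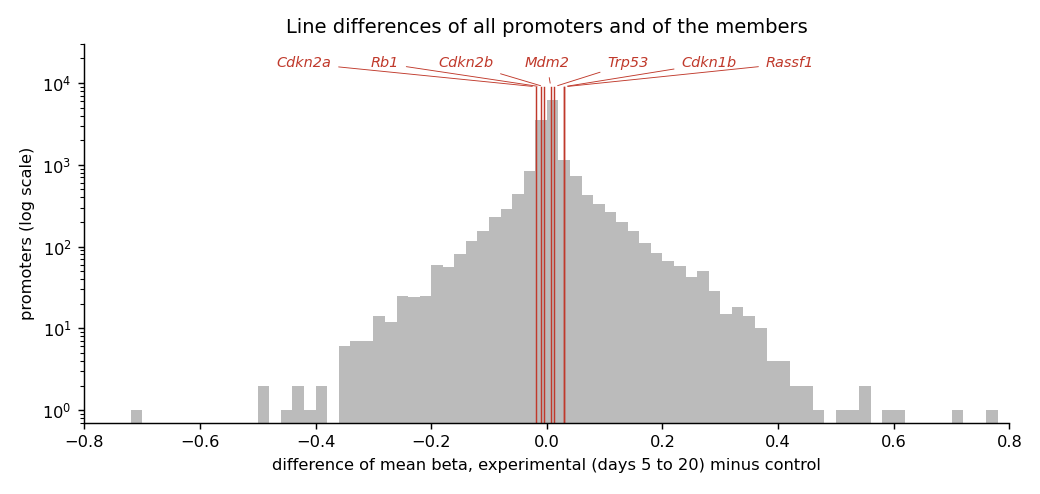
Number of promoters (log axis) by the difference of mean beta values, experimental days 5 to 20 minus control, in bins of 0.02, for all 15804 promoters tested. Red lines mark the 7 members measured, which lie between -0.0189 (Cdkn2a) and 0.0305 (Rassf1), near the peak of the distribution.

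The lead among the members was in Cdkn2a. In a short stretch behind the Arf start, the mean of the listed cytosines was lower in every experimental library than in any control. The stretch did not pass the test. The window of the Arf start (78 cytosines, chr4:89294120-89296119) was at 0.0135, 0.0129, 0.0206, 0.0233 and 0.00228 on experimental days 5, 9, 12, 16 and 20. The control libraries lay between 0.0278 and 0.0473 with a median of 0.0314. All experimental libraries were thus below all controls, which was so for 1.04% of all promoters. The difference was small, 0.0145 ± 0.00818 (SD, n = 5) against 0.0335 ± 0.00717 (SD, n = 6). As M-values it was -0.92 with a standard error of 0.26 (adjusted p = 0.103 from limma, and 0.0698 to 1 over the alternatives). Before doxycycline, the experimental line was at 0.0171 and the control line at 0.0473.

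The difference lay on 1 side of the Arf start. Upstream, 59 cytosines from 1030 to 16 bp before the start had library means between 0 and 0.00728 in both lines, so that the promoter proper was unmethylated throughout. Behind it, 19 cytosines from 186 to 424 bp into the gene (chr4:89294195-89294433) averaged 0.0438, 0.0292, 0.067, 0.0879 and 0.00628 on experimental days 5 to 20. The control libraries lay between 0.114 and 0.17 with a median of 0.124. The groups did not overlap, and experimental day 0, at 0.063, was also below every control. The libraries did not average the same cytosines, since control day 5 listed 16 of the 19 and control day 12 listed 13, and every experimental library listed all 19. When all autosomal runs of at least 3 cytosines no more than 100 bp apart were tested in the same way, a grouping chosen after the data were seen, this run had a mean of 0.0468 ± 0.0319 (SD, n = 5) against 0.133 ± 0.0204 (SD, n = 6), which is -1.69 as M-values with a standard error of 0.44 (adjusted p = 0.096 from limma). It passed the threshold with an offset of 0.05 (adjusted p = 0.0409) and with limma on beta values (adjusted p = 0.024), and over all alternatives the adjusted p lay between 0.024 and 0.262. Of the 38 runs of the members, 0 were called, beside 1.29% of 108208 runs, 3 had an unadjusted p under 0.05 beside 15.4%, and in 1 the groups did not overlap, beside 4.28% of all runs (1.46% lower).

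**Figure D3:**
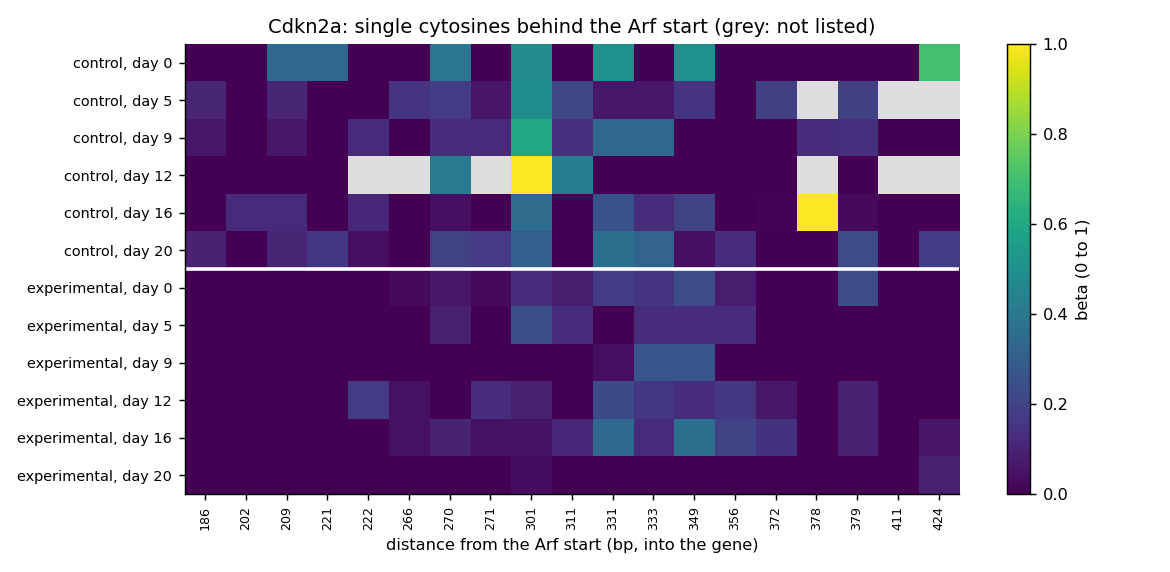
Beta value (colour, 0 to 1) of the 19 single cytosines behind the Arf start of Cdkn2a, by distance from the start in bp and by library. The column at 301 bp is lighter in all 6 control libraries than in any experimental library, and the other columns are dark or mixed.

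Within this stretch, 15 of the 18 cytosines that varied had the lower mean in the experimental libraries, and 6 of the 19 were at 0 in every experimental library, of which 1 was also at 0 in every control library that listed it. The stretch was picked after its values were seen, and neighbouring cytosines can share a CpG or reads, so these counts are descriptions only. The cytosine at position 89294318, 301 bp into the gene, had the largest difference of the Cdkn2a cytosines listed in all libraries. Its beta values were 0.239, 0, 0.087, 0.0476 and 0.0323 on experimental days 5 to 20 and 0.125 on experimental day 0. In the control libraries they lay between 0.304 and 1 with a median of 0.479. The groups did not overlap, with means of 0.0812 ± 0.0937 (SD, n = 5) and 0.537 ± 0.25 (SD, n = 6), and the adjusted p over all cytosines was 0.224 from limma (0.137 to 0.431 over the alternatives). Without this cytosine the stretch differed by -0.0607, and its highest experimental library (0.0902) was above the lowest control (0.0704), so that the separation of the groups was lost. Position 89294241, 378 bp into the gene and named after its values were seen, was at 1 in control day 16 and at 0 in every experimental library. Control days 5 and 12 did not list it. The part of this unlike listing in the separation was not tested. Nearby, position 89294410, 209 bp into the gene, stood at 0 throughout the 6 experimental libraries and at 0.122 ± 0.112 (SD, n = 6) in the control libraries (adjusted p = 0.15 from limma). This cytosine, named after its values were seen, was called without control day 12 (adjusted p = 0.00996).

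Further into Cdkn2a, methylation was high in both lines. From 1018 to 1095 bp into the gene, at 5 cytosines, the library means lay between 0.333 and 0.911. At the 3′ end, 11 cytosines had means between 0.762 and 0.938. A run of 5 of them had 0.756 ± 0.0527 (SD, n = 5) in the experimental and 0.92 ± 0.134 (SD, n = 6) in the control libraries, with overlapping values (adjusted p = 0.172 from limma). Control day 0 listed only position 89275071 of this run, at 1, and control day 12 listed all but that position. Over the whole gene (43 cytosines) the beta value was 0.315, 0.357, 0.31, 0.347 and 0.314 on experimental days 5 to 20, and between 0.341 and 0.399 with a median of 0.374 in the control libraries. The groups overlapped, and the means of 0.329 ± 0.0221 (SD, n = 5) and 0.369 ± 0.0231 (SD, n = 6) had an adjusted p of 0.292 from limma. Over the 30 cytosines listed in all 12 libraries, the difference was -0.0167 in place of -0.0399.

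At the p16Ink4a start, inside the same gene, library means ranged more widely in the experimental line. The 8 cytosines of its window (start at position 89282192) had beta values of 0.0338, 0.2, 0.0262, 0.0125 and 0.0186 on experimental days 5, 9, 12, 16 and 20, and 0.102 on day 0. The control libraries lay between 0 and 0.0357. The groups overlapped. In a fit over every start of the promoter table, in which 2.02% of 16319 windows were called, its M-values differed by 1.63 with a standard error of 0.63 (adjusted p = 0.226 from limma), the opposite sign to the Arf window.

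The cytosines inside Cdkn2b were at or near 0 in all libraries other than control day 12, and those just upstream were methylated in part on experimental days 5 and 20. Its gene span (36 cytosines) had beta values between 0.000868 and 0.00461 on experimental days 5 to 20. The control libraries were between 0 and 0.00397 apart from control day 12, at 0.0909, where 22 of the 36 cytosines were listed. The means were 0.00297 ± 0.00161 (SD, n = 5) and 0.0166 ± 0.0364 (SD, n = 6), with an adjusted p of 0.784 from limma. In the window of its start the difference was -0.0048 on the beta scale and 0.17 on the M-value scale, so that mean and test differed in sign (adjusted p = 0.921). The named cytosine, position 89310908, was at 1 in control day 12, at 0.0286 in control day 16 and at 0 in the other 10 libraries. Upstream of the start, 4 cytosines were at 0.312 on experimental day 20, 0.0735 on day 5, 0.0179 on day 12 and 0 on day 16, and at 0 in the 5 control libraries that listed them (adjusted p = 0.257 from limma). All 40 cytosines of Cdkn2b lie within the annotated span of the non-coding gene Gm12610.

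**Figure D4:**
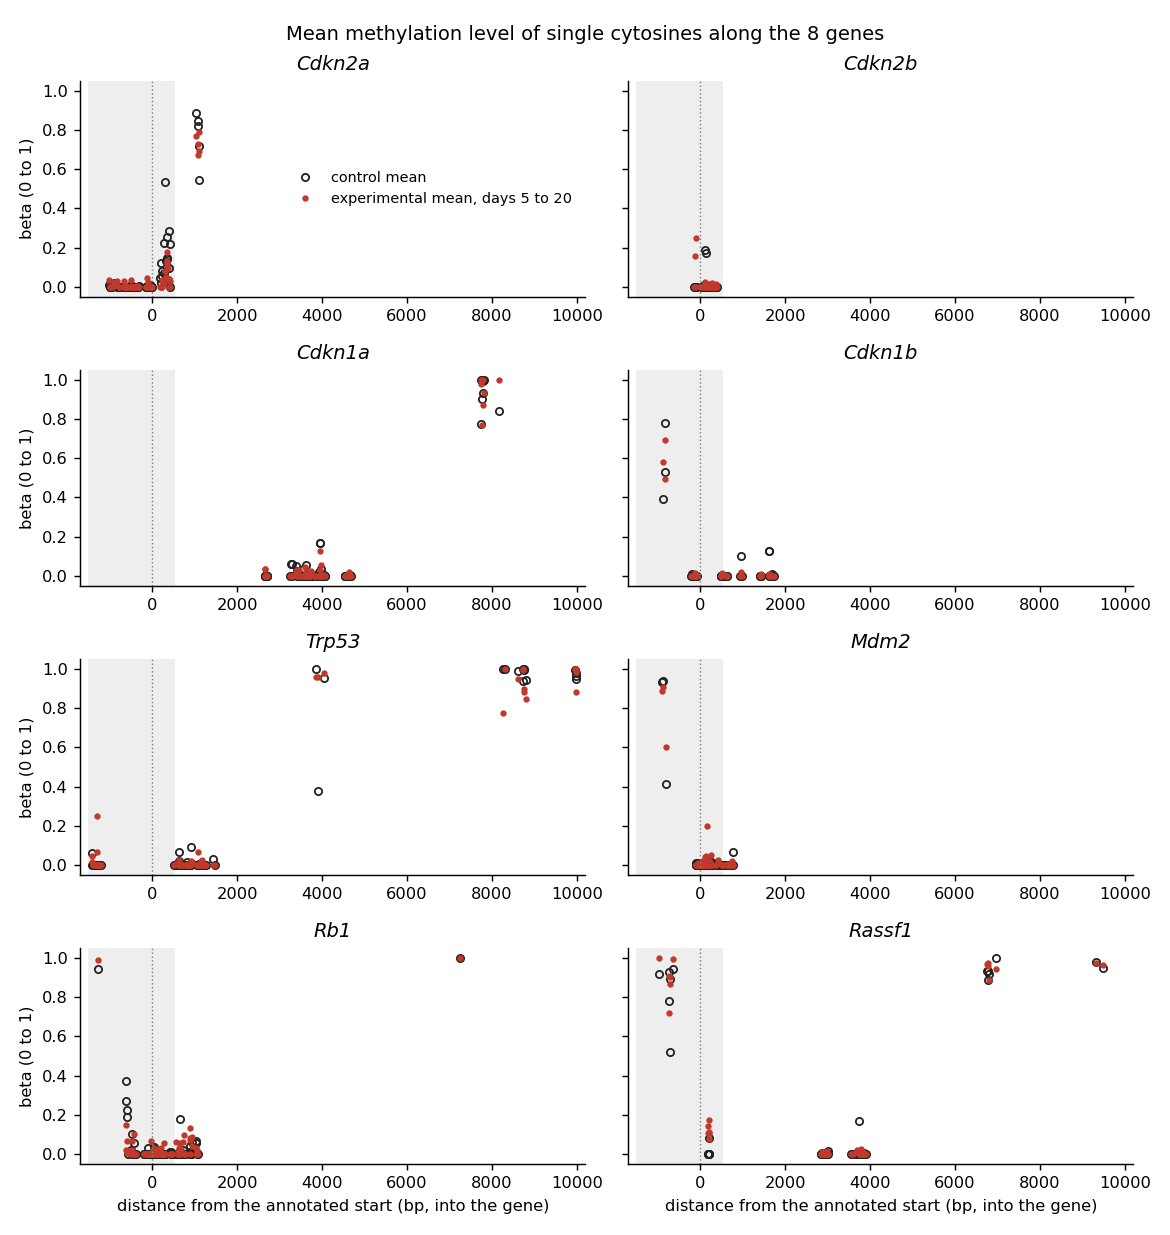
Mean beta value (0 to 1) of single cytosines against the distance in bp from the annotated start, from 1500 bp upstream into the first part of each of the 8 genes. Black circles are means over control libraries, red points means over experimental libraries of days 5 to 20, and grey shading the window around the start. Most cytosines near the starts sit at 0 in both lines, apart from those just inside Cdkn2a and Rassf1, and those upstream of Rassf1, Mdm2 and Cdkn1b and towards the gene ends sit high in both.

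Of the p21 and p27 genes, neither passed the test. The gene span of Cdkn1a (chr17:29090979-29100722, plus strand, 79 cytosines) had beta values of 0.105, 0.0829, 0.109, 0.104 and 0.0938 on experimental days 5 to 20, and between 0.0625 and 0.116 with a median of 0.0994 in the control libraries. The groups overlapped (0.0991 ± 0.0107, n = 5, against 0.0938 ± 0.0217, n = 6, SD; adjusted p = 0.824 from limma). The 71 cytosines from 2644 to 4667 bp into the gene had library means of at most 0.0248, and the 8 at the 3′ end, from 7742 bp, had means of at least 0.861. Around the second start, 11 cytosines had library means between 0 and 0.0341. The named cytosine, position 29094960, was at 0 on every experimental day from 5 to 20 and reached 0.118 in the control libraries, and experimental day 0 was at 0.111.

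Cdkn1b (chr6:134920401-134925525, plus strand) was at or near 0 at its start and variable upstream. The 16 cytosines from 221 to 92 bp before the start had library means of at most 0.00481. The 3 cytosines from 872 to 834 bp upstream had means of 0.467, 0, 0.476, 1 and 1 on experimental days 5 to 20 and 1 on experimental day 0. The 4 control libraries that listed them had 0.436, 0.636, 1 and 0.196 on days 0, 5, 9 and 20. Both lines thus ranged widely, with no order by line or day. The window of 22 cytosines had 0.0813 ± 0.0583 (SD, n = 5) and 0.052 ± 0.0541 (SD, n = 6), with an adjusted p of 0.722 from limma. The difference of 0.0293 ranged from 0.0147 without experimental day 16 to 0.0496 without experimental day 9. The difference turned negative (-0.00347) over the 3 cytosines listed in all 12 libraries, since these leave out the upstream group. Control days 12 and 16 listed none of that group. Their window values of 0 thus rest on the unmethylated cytosines near the start alone, and they lower the control mean. The difference of 0.0293 therefore sets unlike cytosines against each other, and it was not computed without these 2 libraries.

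Neither gene of the p53 axis passed the test at its window. At Trp53 (chr11:69580348-69591873, plus strand) the listed ones of the 16 upstream cytosines were at 0 in 9 of the 12 libraries. Their mean was 0.0711 and 0.0317 on experimental days 5 and 16 and 0.0474 on control day 0. Experimental day 9 listed 11 of the 16, control day 0 listed 8 and control day 12 listed 3. The value of control day 0 includes position 69578927, at 0.379. The adjusted p was 0.708 from limma, and the difference of 0.0127 was 2.34e-05 without experimental day 5. From 508 to 1263 bp into the gene, 42 cytosines had library means of at most 0.0142, and from 3844 bp on, 22 cytosines had means of at least 0.902. The whole gene had 0.31 ± 0.0158 (SD, n = 5) and 0.314 ± 0.0138 (SD, n = 6), with an adjusted p of 0.917 from limma.

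A single cytosine within Trp53 had the smallest p-value of the 286 tested in the members' windows and spans, and is named for that reason after its values were seen. At position 69584239, 3891 bp into the gene and outside the window of the rule, the beta values were 1, 1, 0.875, 0.923 and 1 on experimental days 5 to 20 and 0.788 on experimental day 0. The control libraries were at 0.406, 0.686, 0.265, 0, 0.345 and 0.568 on days 0 to 20. All experimental libraries, day 0 included, were above all controls. The means of 0.96 ± 0.0578 (SD, n = 5) and 0.378 ± 0.24 (SD, n = 6) gave an adjusted p of 0.0977 from limma on M-values and 0.0436 on beta values (0.0436 to 0.22 over the alternatives).

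Mdm2 lies at chr10:117688875-117710758 on the minus strand. The window of its start (chr10:117710259-117712258, 67 cytosines) had beta values of 0.041, 0.0332, 0.0428, 0.041 and 0.0655 on experimental days 5 to 20 and between 0.0314 and 0.0425 with a median of 0.038 in the control libraries. The groups overlapped (0.0447 ± 0.0122, n = 5, and 0.0379 ± 0.00426, n = 6, SD; adjusted p = 0.637 from limma). The difference of 0.00679 was 0.00159 without experimental day 20. The 83 cytosines from 105 bp before to 759 bp behind the start had library means of at most 0.0158, and the 3 from 912 to 818 bp upstream means between 0.599 and 0.919. The named cytosine, position 117710609, was at 1 on experimental day 20 and at 0 in the other 11 libraries. At position 117710521, 237 bp into the gene, beta values were 0.0303, 0, 0.08, 0.0698 and 0.0851 on experimental days 5 to 20, 0.04 on experimental day 0 and 0 in all 6 controls (adjusted p = 0.158 from limma). This cytosine, also named after its values were seen, was called without experimental day 9 (adjusted p = 0.0039).

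At Rb1 (chr14:73192858-73325951, minus strand) the 90 cytosines around the start had library means of at most 0.00628. The window of 112 cytosines had beta values of 0.0113, 0.0109, 0.0212, 0.0157 and 0.0185 on experimental days 5 to 20, and between 0.0124 and 0.0207 in the control libraries other than day 12, at 0.0815. The groups overlapped (adjusted p = 0.709 from limma). Control day 12 stood apart through 14 upstream cytosines (chr14:73326342-73326576), with a mean of 0.33 there against at most 0.0595 in any other library. Without that library the window difference was 0.000261, in place of -0.0108. From 7237 bp into the gene on, 7 cytosines had library means between 0.75 and 1. Over the whole gene, with 108 cytosines, library means lay between 0.0488 and 0.0859.

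Rassf1 was the member whose window was methylated and varied most, with an SD of 0.139 over the 12 libraries. The window (chr9:107549934-107551933, plus strand, 12 cytosines) had beta values of 0.575, 0.409, 0.598, 0.468 and 0.494 on experimental days 5 to 20 and 0.745 on experimental day 0. The control libraries were at 0.401, 0.41, 0.376, 0.8, 0.457 and 0.426 on days 0 to 20. The groups overlapped (0.509 ± 0.0778, n = 5, and 0.478 ± 0.16, n = 6, SD; adjusted p = 0.914 from limma). This mean joins 2 unlike stretches, and control day 12 listed 1 of them alone. Without control day 12 the difference was 0.0948 in place of 0.0305.

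The 6 cytosines from 973 to 649 bp upstream, within the annotated spans of Zmynd10 and Gm34106, were methylated in every library, with means between 0.752 and 0.989. Among them, position 107550725 had the largest difference of the cytosines listed in all libraries, with 0.904 ± 0.087 (SD, n = 5) in the experimental and 0.519 ± 0.302 (SD, n = 6) in the control libraries (adjusted p = 0.365 from limma). Its values overlapped, since control day 16 was at 0.862 and experimental day 5 at 0.806. The 6 cytosines from 168 to 211 bp behind the annotated start, the first of them the CpG in capitals in the sequence of the first start above, behaved otherwise. Their mean was 0.583 on experimental day 0, 0.286 on day 5, 0 on day 9, 0.254 on day 12, 0.0556 on day 16 and 0 on day 20. The control libraries were at 0 on days 0, 9, 16 and 20 and at 0.0667 on day 5, and day 12 listed none of the 6. The highest values were thus on experimental days 0, 5 and 12, each of them 1 library. These 6 cytosines lie close together, and the number of reads behind them is unknown. For the whole Rassf1 window no slope with day was called. The difference of this run over days 5 to 20 had an adjusted p of 0.471 from limma. Around the second start of Rassf1, 37 cytosines had library means of at most 0.0312.

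**Figure D5:**
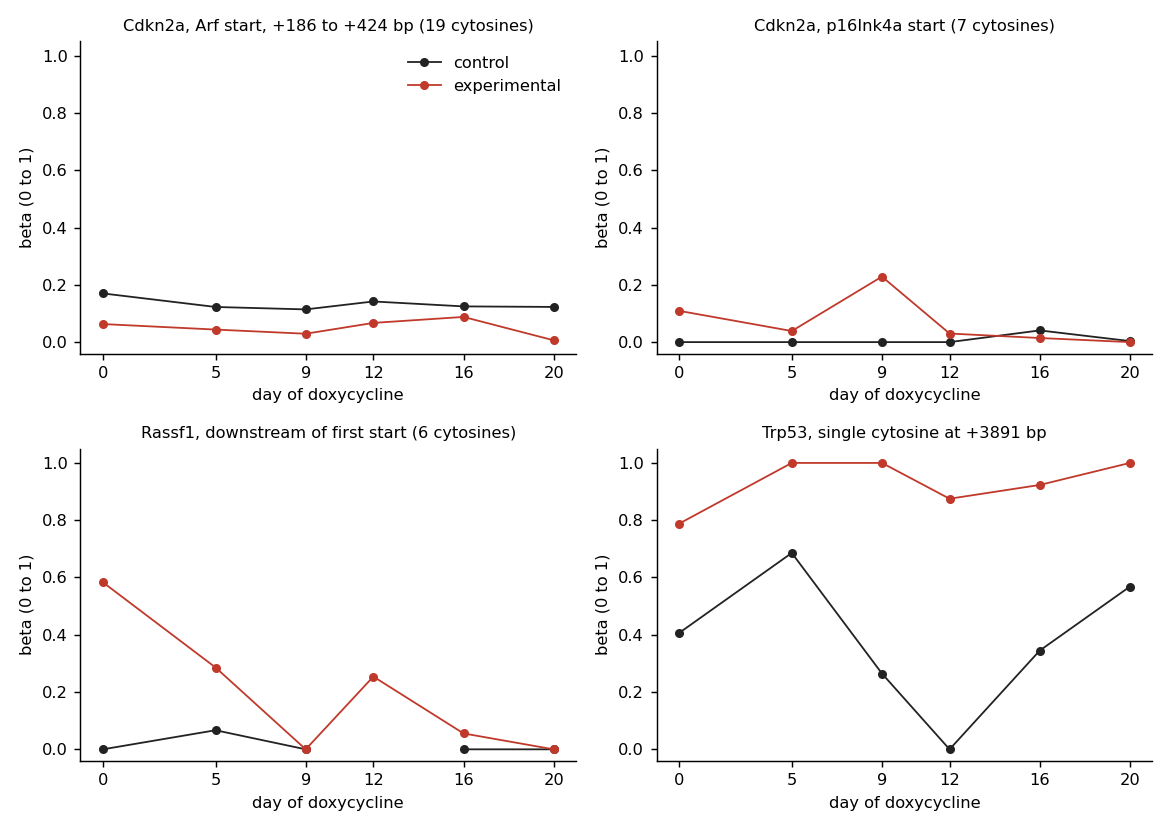
Mean beta value (0 to 1) by day of doxycycline in the experimental (red) and control (black) line for 4 items: 19 cytosines behind the Arf start of Cdkn2a, 7 behind its p16Ink4a start, 6 behind the first start of Rassf1, and 1 cytosine in Trp53. The lines are apart at day 0 already in each panel, and no control value exists for Rassf1 on day 12.

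Rassf1 had the largest SD over the 12 libraries of the members, so its window was set against the 2268 promoters with an SD of at least 0.1. The highest Pearson r over the 12 libraries was with Gm34106 (r = 1), whose window holds the same 12 cytosines, then with Fahd2a (r = 0.895) and Gm32811 (r = 0.864). Control day 12 and experimental day 0 were the 2 highest libraries at each of the 3, and these r values are descriptions over libraries that share a line and a culture. The Rassf1 value of control day 12 rests on its upstream stretch alone, and r without that library was not computed.

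No member passed the test for a change with day. In a fit over all 12 libraries with line, day and their interaction, 0 of 15804 promoters had a slope in the control line, a slope in the experimental line or a difference between slopes at an adjusted p under 0.05 from limma (0% called), and 892, 714 and 680 had an unadjusted p under 0.05 (5.64%, 4.52% and 4.3%). The adjusted p of the 7 members was at least 0.997 in each. The largest difference between slopes relative to its error was at Mdm2, 0.82 on the M-value scale over 20 days (standard error 0.45), where the experimental slope was 0.52 and the control slope -0.30.

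Before doxycycline the single libraries of the 2 lines already differed at several members. The difference of beta values, experimental minus control day 0, was -0.0302 at the Cdkn2a window, 0.102 at the p16Ink4a start, 0.0769 at Cdkn1b, -0.0474 at Trp53, 0.344 at Rassf1 and between -0.00341 and 0.0036 at Cdkn2b, Mdm2 and Rb1. Each rests on 1 library per line and was not tested. At Trp53, control day 0 listed 8 of the 16 cytosines that experimental day 0 listed, among them position 69578927 at 0.379. At some windows, libraries within a line ranged as widely. At Cdkn1b, experimental days 5 to 20 lay between 0 and 0.14 and the controls between 0 and 0.136. The controls at 0 were days 12 and 16, which listed none of the methylated upstream cytosines, and the lowest other control was at 0.0267. At Trp53, experimental days 5 to 20 lay between 0 and 0.0711, and control day 0 was the only control above 0. At the Cdkn2a window, by contrast, experimental days 5 to 20 were also below every control.

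The promoters of 81 other genes of the cell cycle, p53, polycomb and Hippo pathways were read from the same fit, and 67 had enough cytosines. Of these, 1 was called higher and 0 lower in the experimental line, 5 had an unadjusted p under 0.05 and in 2 the groups did not overlap, beside 2.03%, 16.6% and 4.37% of all promoters. Their median difference was 0.000999, beside 0.00235 over all promoters, and 57 of the 67 had a control mean under 0.1. The gene called was Tbx3, a T-box factor known to repress p19Arf. Its promoter (chr5:119669034-119671033, 35 cytosines) had beta values of 0.115, 0.143, 0.129, 0.114 and 0.131 on experimental days 5 to 20 and between 0.0334 and 0.0993 in the control libraries (adjusted p = 0.0369 from limma). The groups did not overlap, and experimental day 0 was at 0.121 beside 0.0614 on control day 0. The 3 with the largest difference of means were Rassf2 (0.255 ± 0.119 against 0.509 ± 0.279, 4 cytosines), Cdkn1c, the imprinted gene of p57 (0.551 ± 0.282 against 0.683 ± 0.231), and Rassf10 (0.15 ± 0.0401 against 0.224 ± 0.0592), each with SD over 5 and 6 libraries, and with adjusted p of 0.726, 0.808 and 0.257 from limma. They did not pass the test.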

How the data were processed

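RRBS was carried out on 12 libraries, 1 per line and day. According to the methods of the study, the authors sequenced paired ends, aligned to mm10 with Bismark and extracted methylation calls into coverage tables. The values deposited by the authors are the percent of reads methylated at each CpG cytosine, without read counts. The Bismark version and the restriction enzyme are not given in the sources used here. Filters that the study applied later are not part of these files.

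The percent was divided by 100 to give beta values. Autosomal cytosines listed in at least 10 libraries were averaged over whole genes and over promoters (1500 bp before and 500 bp after the annotated start), with at least 3 cytosines per region. Gene positions came from RefSeq (GRCm38.p6), and 15486 of 15528 genes had the same strand in a second source. Regions were tested with limma 3.58.1 in R 4.3.3 after conversion to M-values, the log2 ratio of beta to 1 - beta with an offset of 0.01 on each. P-values were adjusted over all features (Benjamini-Hochberg) at a threshold of 0.05. Single cytosines were tested in the same way after 266577 with the same value in all libraries had been left out. The procedure was tested on simulated data. Figures were drawn with matplotlib 3.10.9.

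The members and gene lists were chosen with earlier results of these data known. Single cytosines were named by the threshold or, where none passed, as the 1 listed in all 12 libraries with the largest difference. Others are marked as chosen after their values were seen. Of the other cell cycle genes, those past the threshold and the 3 with the largest differences were named. Exons and introns are not given, since no mm10 annotation of them was used here.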

Additional observations from a re-analysis of the deposited data

Results flagged for a closer look

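Of 40 groups of libraries checked for a value far from the rest of its group, 16 had one. Chance flags about 1 in 20 groups of normally spread, independent values, but these groups share cytosines and many hold values at 0 in all other libraries, so the count cannot be read against that rate. Control day 12, the library with the fewest listed cytosines, was that value in 6. It was at 0.0909 at the Cdkn2b window and at 0.0909 over the Cdkn2b gene, at 0.8 at the Rassf1 window, at 0.0815 at the Rb1 window, and at 1 at Cdkn2b position 89310908 and at Rb1 position 73326565. At the Rassf1 window it listed none of the 6 cytosines behind the start. The 5 listed upstream cytosines had a mean of 0.8, within the 0.752 to 0.989 of the libraries in that stretch. The Rassf1 value is thus that of the upstream stretch alone. For the other values, the part of the low listing was not tested.

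Control day 0 stood apart at the Cdkn2a window (0.0473), the Trp53 window (0.0474) and Trp53 position 69578927 (0.379). Control day 5 did so at Cdkn1b position 134920211 (0.0625) and in the 6 cytosines behind the first Rassf1 start (0.0667), and control day 16 in the 7 cytosines of the p16Ink4a start (0.0408). In the experimental line, day 20 stood apart at the Cdkn2b window (0.0384) and at Mdm2 position 117710609 (1), day 16 at Trp53 position 69578927 (0.087) and day 9 at the p16Ink4a start (0.229).

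Experimental day 0, which enters no group, was above every control library at the p16Ink4a start (0.109, with a highest control of 0.0408) and behind the first Rassf1 start (0.583, with a highest control of 0.0667). Each is 1 library before doxycycline.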

How the results depend on the processing

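Read depth is unknown, so a beta value of 0 or 1 may rest on few reads, and the lines are single cultures sampled in time. Under every alternative run, 0 members were called over promoters and gene spans. The number of promoters called, 321, was 129 with an offset of 0.001, 212 without constant cytosines, 34 with the median over cytosines, 183 without day 0 in either line, 525 with experimental day 0 added, and 94 to 381 when 1 library was left out (94 without experimental day 12, 381 without control day 12). The 448 gene spans became 860 with cytosines listed in all 12 libraries and 228 to 593 with 1 library left out. The 1394 runs became 2838 with an offset of 0.05, 3099 on beta values and 623 to 1770 with 1 library left out, and the member runs called rose from 0 to 1 with that offset and to 1 on beta values, the stretch behind the Arf start. The 4462 cytosines became 6925 on beta values, where 1 cytosine of the members' windows and spans was called, Trp53 position 69584239. With 1 library left out, 0 to 1 cytosines of the rule and 0 to 2 of windows and spans were called, namely Mdm2 117710521 and Rb1 73325281 (adjusted p = 0.0224) without experimental day 9, Cdkn1a 29098731 (adjusted p = 0.01) without control day 5 and Cdkn2a 89294410 without control day 12, by limma. Among day slopes, 1 promoter had a control slope in early against late days.

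Some differences that were not called changed sign. With cytosines listed in all 12 libraries they were -0.00347 at the Cdkn1b promoter, -0.000283 at the Trp53 promoter, 0.00789 over Trp53 and -0.00065 over Rassf1, and with 500 bp on either side 0.00123 at the Rb1 promoter. With 1 library left out they ranged from -0.0115 to 0.0101 at the Cdkn2b promoter, from -0.0135 to 0.000261 at the Rb1 promoter, from -0.017 to 0.00119 over Cdkn2b, from -0.000928 to 0.00975 over Cdkn1a, from -0.00701 to 0.00272 over Trp53, from -0.00418 to 0.017 over Rassf1 and from -0.0632 to 0.0174 at Trp53 position 69578927. Leaving out control day 12 gave 1 end of each of the first 6 of these ranges. At Cdkn2b, Rb1 and Cdkn1a this was the end with the changed sign. Over Trp53 and Rassf1 it kept the sign (-0.00701 and 0.017), and the sign changed without experimental day 9 and control day 16, respectively. The cause of the other changes was not tested.

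Libraries of the same day did not deviate together (correlations between -0.0396 and 0.0282, with the same day as best partner in 1 of 5), so the day only names them. With day as a replicate block, 1 promoter, 31 gene spans, 0 runs and 0 cytosines were called, and Trp53 position 69578927 differed by 0.0174.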
